A study of Mus musculus with 21 samples.

Results

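Mature erythroid cells were compared with mature myeloid cells of the bone marrow of C57BL/6 mice, to ask which gene families separate the latest fractions of these lineages in the series. The comparison takes the 3 arrays titled Ter119 and the 3 arrays titled Mac1Gr1, 6 of the 21 arrays of the series. Per the labels, the Ter119 cells were sorted as positive for CD71, the transferrin receptor, and for Ter119, an antigen of the erythroid surface. The Mac1Gr1 cells were sorted as positive for Mac1, an integrin of myeloid cells, and for Gr1, an antigen of granulocytes and some monocytes. The labels name no genetic change and no treatment for any group. For neither gate is a step that removed other lineages given, and neither is the animals' age or whether the 3 arrays of a fraction came from separate animals, so p-values measure the spread between these samples. The series also holds KLS stem and progenitor cells and 4 intermediate fractions (PreMegE and CFUe on the erythroid side, PreGM and GMP on the myeloid side), with 3 arrays each. All 21 arrays entered the fit from which the spread of each probe was taken.

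Red cells mature by filling with haemoglobin while they build a membrane skeleton, shrink, and lose their nucleus and organelles. Neutrophils take another route: they fill granules with enzymes and antimicrobial proteins in successive waves, and set up the oxidase, receptors and motile actin network with which they find and kill microbes. The transcription factors GATA1 and KLF1 are known for driving the erythroid programme, and PU.1 (Spi1) and the C/EBP factors for the myeloid one.

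Levels are given as log2 of the probe's intensity relative to the 75th percentile of its array, so that 0 stands for that percentile and a difference of 1 is 2-fold. Levels are compared between fractions for 1 probe at a time and never between probes. Each gene is represented by 1 probe, and differences are written as Ter119 minus Mac1Gr1. A gene was called different at a Benjamini-Hochberg adjusted p under 0.05 from limma, taken over 29532 probes, with a change of at least 2-fold. Where no array of a fraction showed the probe well above background, the fold is a lower bound and is written as "at least".

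The 6 arrays were of like quality. Probes well above background made up 64.1% ± 3.20 (SD, n = 3) of the Ter119 arrays and 62.9% ± 3.07 of the Mac1Gr1 arrays. Across probes, which are not independent replicates, arrays of Ter119 correlated with each other at 0.983 to 0.988 and arrays of Mac1Gr1 at 0.988 to 0.989, while pairs across the fractions lay between 0.862 and 0.879. Ter119 arrays were less like CFUe (0.706 to 0.755) than like Mac1Gr1. All arrays were scanned on 1 day, and no slide held both fractions, so slide and fraction can be separated only through the other fractions. CFUe replicate 3 and PreGM replicate 3 stood apart from the other arrays of their fractions: the median level of the secondary and tertiary granule genes was -2.78 on the former, against -4.72 and -4.74, and -0.12 on the latter, against -2.45 and -2.76. Results that rest on their spread are given with and without them.

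The genes of the sorted antigens followed the gates. Tfrc, which encodes CD71, stood at 3.06, 3.63 and 3.83 on the Ter119 arrays against -1.85, -1.60 and -1.77 on the Mac1Gr1 arrays (38.1-fold higher, limma adjusted p 2.83e-13). Itgam, the alpha chain of Mac1, stood at 3.37, 2.68 and 3.02 in Ter119 against 5.41, 5.04 and 5.04 in Mac1Gr1. Neither gene overlapped between the fractions, and Itgam differed by 4.41-fold and was well above background on all 6 arrays. Of all 14281 genes tested, 10552 did not overlap, so a lack of overlap alone sets no gene apart, here or below. Itgb2, its beta chain, differed by 4.24-fold, and Ptprc, the leukocyte antigen CD45, by 3.38-fold. Ly6c2, 1 of the genes behind Gr1, differed by 2.28-fold (adjusted p 0.0163), a call lost with the slide as a block. Ly6g was not analysed here.

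Many transcripts of the Mac1Gr1 fraction that CFUe lacked were present in Ter119. Of 603 genes well above background on all 3 Mac1Gr1 arrays and on no CFUe array, 444 (73.6%) were well above background on all 3 Ter119 arrays and 79 on none. Of the 147 of them that were also below background in GMP, 96 (65.3%) were well above background on all 3 Ter119 arrays. Both shares lay below that of all 14281 genes tested, of which 12551 were well above background on all 3 Ter119 arrays and 846 on none. Since the genes were picked for their level in Mac1Gr1, the sizes of their differences are not read. Other cells within the gate and transcription in erythroid cells cannot be told apart from these arrays, nor can fewer cells of a type and less RNA per cell. The values of the marker lists follow the families below.

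Sex-linked transcripts split the fractions too. Xist, transcribed from the inactive X chromosome, stood at 3.90, 4.14 and 4.14 in Mac1Gr1 and was not well above background on any Ter119 array, where it was at least 355-fold lower (adjusted p 0.00345). Ddx3y, a gene of the Y chromosome, stood at 1.19, 1.20 and 1.17 in Ter119 and was not well above background on any Mac1Gr1 array (at least 60.3-fold higher). It was well above background on all 3 arrays of KLS and PreMegE, on 1 array each of CFUe and PreGM, and on none of GMP. On the Ter119 and Mac1Gr1 arrays these transcripts split exactly as the fractions do, as they would between animals of different sex. Within these arrays, the difference of any gene between the fractions therefore cannot be told apart from a difference between such animals. A fit with detection of Ddx3y as a block was chosen after seeing the data. It rests on the CFUe and PreGM arrays that showed Ddx3y alone, which are the replicates 3 named above.

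Of 14281 genes tested, 3356 (23.5%) were called higher in Ter119 and 2788 (19.5%) lower. The counts of every list below are to be read beside these 2 shares. By probes the split was 6511 higher against 5877 lower, 52.6% of calls being higher. The balance depends on the scaling: with arrays scaled to their spike-in RNAs the median difference of all probes went from 0.06 to -0.67 and the split became 3031 against 11473 (20.9% higher). Quantile scaling gave 5678 against 6595. Directions below are relative to the 75th percentile. Many lists whose count or median moved by over 1.5 times under another setting are given with that value, but not every such setting is given.

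The sizes of the differences were unequal in the 2 directions. Among 11708 genes well above background on all 6 arrays, differences ran from -3.43 to 11.22. Of these, 347 (2.96%) exceeded 3 and 16 (0.137%) lay below -3. Beyond 4 there were 183 genes higher in Ter119 and 0 lower, and 103 genes exceeded 5. The largest excess of Ter119 was 2379-fold, in Alas2, while the largest excess of Mac1Gr1 measured on all 6 arrays was 10.8-fold, in Arhgap9.

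**Figure D1:**
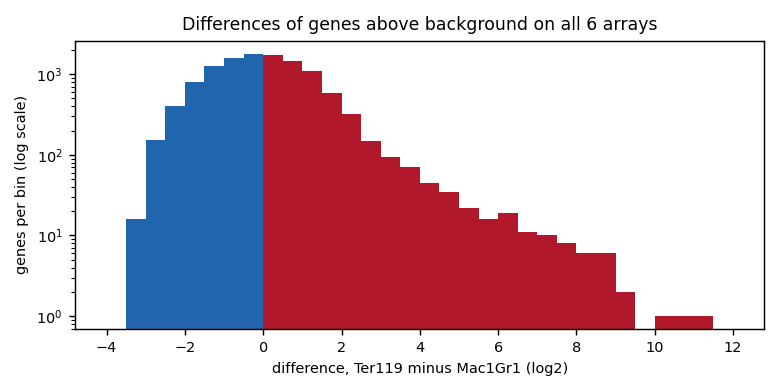
Histogram of the Ter119 minus Mac1Gr1 difference (log2, bins 0.5 wide) over the 11708 genes well above background on all 6 arrays, with the number of genes on a log axis. The right side runs to 11.22 while the left side ends at -3.43.

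Haem synthesis was among the families most raised in Ter119: 13 of 17 genes were higher and 2 lower, with a median difference of 4.58 against 0.11 over all genes. Alas2, the erythroid enzyme that commits glycine and succinyl-CoA to haem, stood at 10.01, 10.13 and 9.63 in Ter119 and at -1.51, -1.19 and -1.18 in Mac1Gr1. The difference of 11.22 ± 0.29 (SE, adjusted p 1.51e-14), 2379-fold, was the largest among the 11708 genes measured on all 6 arrays. Its housekeeping counterpart Alas1 went the other way, at 3.25, 3.40 and 3.40 against 4.99, 5.06 and 5.04, a 3.20-fold excess in Mac1Gr1 (adjusted p 2.37e-06). The fractions did not overlap for either gene.

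The enzymes downstream of ALAS2 were higher in Ter119. Fech, which inserts iron into protoporphyrin, stood at 6.33, 6.39 and 6.56 against -0.67, -1.04 and -0.92 (158-fold, adjusted p 1.77e-16). The fractions lay apart on all 6 arrays. Alad, Uros, Urod and Cpox differed by 5.23, 4.58, 3.93 and 6.03, and Ppox by 1.38, a call that spike-in scaling ended. Abcb10, a mitochondrial transporter of erythroid cells, differed by 5.62 and the glycine carrier Slc25a38 by 1.21. Tmem14c, a porphyrinogen importer, overlapped between the fractions (0.09, adjusted p 0.623), and the haem exporter Flvcr1 was 3.22-fold lower in Ter119.

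Alas2 and 3 other genes of the erythroid lists (Epb42, Trim10 and Kel, described below) carry the letters AGATAA, the core bound by GATA factors, in the 250 bases before their annotated start. They are shown to let the match be placed. The sequences are from RefSeq, build GRCm38.p6, read 5′ to 3′ on the strand of the gene, with AGATAA or its reverse complement TTATCT in capitals. No capital match overlaps another.
Alas2, chrX:150547167-150547416, plus strand: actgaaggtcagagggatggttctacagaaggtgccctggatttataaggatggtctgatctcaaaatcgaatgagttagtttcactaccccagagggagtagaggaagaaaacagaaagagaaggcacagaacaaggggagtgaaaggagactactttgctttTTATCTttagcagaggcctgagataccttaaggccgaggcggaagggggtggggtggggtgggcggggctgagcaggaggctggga
Epb42, chr2:121036878-121037127, minus strand: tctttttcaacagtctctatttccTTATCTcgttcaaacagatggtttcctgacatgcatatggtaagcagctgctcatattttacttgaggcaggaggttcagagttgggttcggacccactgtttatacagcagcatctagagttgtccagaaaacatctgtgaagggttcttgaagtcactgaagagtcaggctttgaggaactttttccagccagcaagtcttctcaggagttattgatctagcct
Trim10, chr17:36869324-36869573, plus strand: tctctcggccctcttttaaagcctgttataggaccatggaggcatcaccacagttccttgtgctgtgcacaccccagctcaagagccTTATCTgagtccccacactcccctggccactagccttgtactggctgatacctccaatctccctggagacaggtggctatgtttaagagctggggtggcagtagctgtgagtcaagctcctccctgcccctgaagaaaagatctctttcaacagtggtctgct
Kel, chr6:41704326-41704575, minus strand: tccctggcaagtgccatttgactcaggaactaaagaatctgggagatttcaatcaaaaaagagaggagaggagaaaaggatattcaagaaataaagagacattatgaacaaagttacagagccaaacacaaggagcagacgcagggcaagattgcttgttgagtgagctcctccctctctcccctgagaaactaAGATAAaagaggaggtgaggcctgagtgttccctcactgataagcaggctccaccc
The matches begin 86 bases before the start in Alas2, 226 in Epb42, 163 in Trim10 and 56 in Kel. Their letters are a description, not binding sites.

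All 6 globin genes tested were higher in Ter119, with a median difference of 7.87. Hba-a1, adult alpha globin, stood at 11.49, 11.22 and 11.03 against 2.73, 3.10 and 3.24, a difference of 8.22 ± 0.26 (SE, adjusted p 1.44e-13). Hbb-bt, adult beta globin, stood at 11.18, 10.79 and 10.60 against 4.30, 4.54 and 4.54, and 4 of 4 probes were called. Both adult genes have near-identical copies that a probe may not tell apart, and Hba-a2, Hbb-bs and Ahsp were not analysed here. Hbb-y, an embryonic beta-like globin, stood at 6.71, 6.23 and 6.84 against -2.37, -2.57 and -2.10, a 491-fold difference. The theta globin gene Hbq1a and the embryonic Hbb-bh1 were not well above background on any Mac1Gr1 array and were at least 366-fold and at least 112-fold higher. Whether probes of the minor globins also take up the adult transcripts was not tested.

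The red cell membrane and its skeleton formed the largest of the erythroid lists, with 31 of 36 genes higher, 2 lower and a median difference of 5.97. Slc4a1, band 3, the anion exchanger, stood at 8.74, 9.08 and 8.85 against -0.75, -0.64 and -0.34, a 708-fold difference (9.47 ± 0.22, adjusted p 3.47e-15). Ank1, the ankyrin that ties band 3 to spectrin, differed by 7.85, with 5 of 5 probes called. Sptb (spectrin beta), Epb42 (protein 4.2) and Tmod1 (tropomodulin, which caps the short actin filaments of the skeleton) were not well above background on any Mac1Gr1 array. They were at least 94-fold, 175-fold and 90.3-fold higher.

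Blood group and channel genes of the same list were apart as well. Kel, the Kell antigen, stood at 5.35, 5.87 and 5.81 against -2.98, -3.15 and -2.83 (405-fold), and Rhd differed by 324-fold. Aqp1, a water channel, differed by 6.89. The list had 5 exceptions. Slc2a1, a glucose carrier, stood at 0.62, 0.56 and 0.57 against 2.40, 2.53 and 2.31, 3.55-fold lower in Ter119. Add3, an adducin of the skeleton, was 3.09-fold lower. Add1, another adducin (-0.17, adjusted p 0.45), Cd47, the signal that restrains phagocytosis (0.10, adjusted p 0.385), and Piezo1, a mechanosensitive channel (0.20, adjusted p 0.215), were not called. Slc2a4, another glucose carrier, was at least 162-fold higher in Ter119.

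Iron genes divided. Of 22 tested, 9 were higher in Ter119 and 3 lower, with a median of 0.34 that became -0.39 under spike-in scaling (6 higher and 5 lower). Quantile scaling gave 9 higher and 1 lower. Slc25a37, mitoferrin, which brings iron into mitochondria, differed by 4.26 (adjusted p 2.64e-13). The ferritin chains Fth1, at 8.72, 8.90 and 8.83 against 8.99, 9.0 and 9.13, and Ftl1, whose arrays overlapped, were not called (adjusted p 0.0668 and 0.818). Slc40a1, ferroportin, the iron exporter, was 4.30-fold lower in Ter119.

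**Figure D2:**
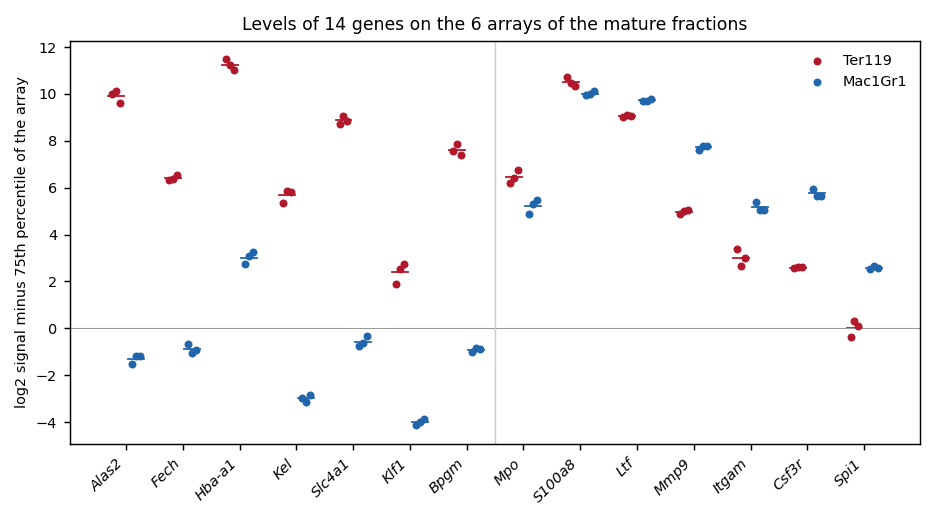
Level (log2, relative to the 75th percentile of the array) of 7 erythroid and 7 myeloid genes on the 3 Ter119 and the 3 Mac1Gr1 arrays, with short lines for the means. The erythroid genes differ by 6.40 to 11.22. Of the myeloid genes, Mpo, S100a8 and Ltf were not called, and Csf3r, with -3.17, is the widest apart.

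The erythroid transcription factors were higher in Ter119 for 10 of 23 genes and lower for 3, with a median of 0.61 that turned to -0.11 under spike-in scaling (7 higher and 8 lower). Quantile scaling and the series table each gave 10 higher and 0 lower. Klf1 stood at 1.91, 2.55 and 2.74 against -4.14, -4.0 and -3.85 (84.2-fold, adjusted p 9.57e-10). Gata1 stood at 0.32, 0.92 and 1.16 against -3.44, -3.36 and -3.03 (16.8-fold). Gfi1b, a repressor required in erythroid cells, and Zfpm1, the GATA1 partner FOG1, differed by 4.43 and 4.62. These 4 genes did not overlap between the fractions, like 10552 of the 14281 genes tested. The lowest of the Ter119 arrays was replicate 1 each time. Sox6, which silences embryonic globin, was at least 149-fold higher and had 4 of 4 probes called, and Bcl11a, another globin repressor, differed by 1.23, which was not called under spike-in scaling.

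The factors shared with other lineages differed less. Gata2 was 3.03-fold and Myb 2.14-fold higher in Ter119. Nfe2, a factor of erythroid cells and megakaryocytes, was lower in Ter119 by under 2-fold (-0.64, adjusted p 0.0161), and Bach1, a haem-sensing repressor, was 2.80-fold lower, which fell just under 2-fold with quantile scaling. Foxo3 differed by 0.55 (adjusted p 0.0106) and was not called.

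Genes of late maturation, autophagy and ubiquitin were higher in 15 of 28 cases and lower in 5, with a median of 1.23 (0.50 under spike-in scaling). Trim10, a RING-finger protein of terminal erythroid cells, stood at 4.30, 5.04 and 5.07 against -4.70, -3.88 and -3.62 (468-fold). Ube2o, a ubiquitin enzyme that remodels the reticulocyte proteome, differed by 8.01, Xpo7, an exportin, by 6.27, and Bnip3l, the mitophagy receptor NIX, by 2.79. Epor, the erythropoietin receptor, stood at 3.91, 4.55 and 4.62 against -1.90, -1.66 and -1.60 (67.9-fold). Of the autophagy genes, Ulk1 was not called (0.27, adjusted p 0.239) and Atg7 was 5.28-fold lower in Ter119.

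Antioxidant genes split by enzyme, 11 of 25 being higher and 5 lower (median 0.88; 9 higher and 9 lower under spike-in scaling). Prdx2, the peroxiredoxin most abundant in red cells, differed by 6.17, with 3 of 3 probes called. Cat, catalase, differed by 4.95 and Gpx1, glutathione peroxidase, by 2.15. Gsr, glutathione reductase, was 3.61-fold lower in Ter119, also with 3 of 3 probes, and Prdx5 was 3.60-fold lower. Among the carbonic anhydrases 7 of 11 genes were higher and 0 lower, a count that was 4 without Mac1Gr1 replicate 2, with quantile scaling and with the series table, and 3 with spike-in scaling and with normexp. Car2 stood at 7.38, 7.40 and 7.69 against -0.53, -0.20 and -0.42 (234-fold, adjusted p 2.66e-17), and Car1 at 0.40, 0.54 and 0.78 against 0.18, 0.12 and 0.35, which was not called (adjusted p 0.351).

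Glycolysis ran against the erythroid families: 1 of 27 genes was higher in Ter119 and 17 were lower, with a median of -1.38 (-2.11 under spike-in scaling). The 1 gene was Bpgm, the mutase that makes the bisphosphoglycerate of red cells, at 7.55, 7.86 and 7.40 against -1.02, -0.83 and -0.90 (8.52 ± 0.13, 368-fold, adjusted p 2.66e-17). Slc2a3, a glucose carrier of leukocytes, stood at 4.23, 4.23 and 4.21 against 6.90, 6.76 and 6.71, 5.91-fold lower. Hk3, the hexokinase of myeloid cells, was 5.47-fold lower and Ldha 2.75-fold lower. Pkm, pyruvate kinase, was 4.72-fold lower, a call lost when slides were blocked (-1.0, adjusted p 0.226).

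Cell cycle genes were higher in Ter119 in 28 of 38 cases and lower in 1, with a median of 1.60. Under spike-in scaling 17 were higher and 2 lower (median 0.88). Mki67, a proliferation antigen, stood at 6.64, 7.06 and 7.08 against 4.12, 4.05 and 4.22, a 6.94-fold difference (adjusted p 3.41e-10). Ccne1, cyclin E1, differed by 3.02, Cdk1 by 1.31 and E2f2, a factor of terminal erythroid divisions, by 1.26, the last of which was lost under spike-in scaling. The gene lower in Ter119 was Ccnd3, cyclin D3, by 2.77-fold. In the BCL2 family 3 of 16 genes were higher (18.8%, against 23.5% of all genes) and 5 lower (31.2%, against 19.5%). The median of -0.40 ranged from -1.12 under spike-in scaling to 0.30 with detection of Ddx3y as a block. Bcl2l1, BCL-XL, which keeps late erythroblasts alive, differed by 3.90 with 3 of 3 probes, and Bcl2 by 1.16, whereas Mcl1, on which neutrophils depend, was 2.56-fold lower in Ter119.

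**Figure D3:**
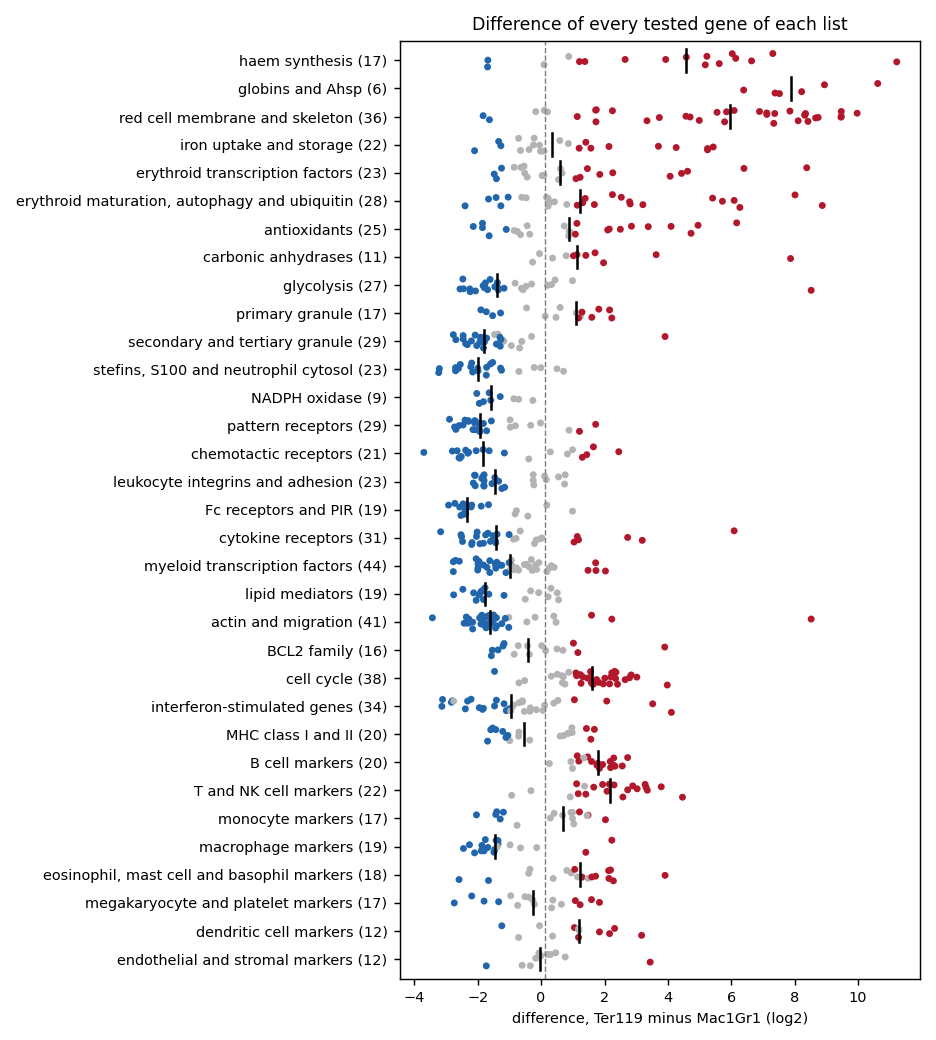
Ter119 minus Mac1Gr1 difference (log2) of each gene by list, red where called higher in Ter119, blue where called lower and grey where not called, with a black tick at the list's median and a dashed line at the median of all genes (0.11). The haem, globin and membrane lists have medians of 4.58 to 7.87, and the secondary granule, stefin, oxidase, adhesion, lipid mediator, actin and receptor lists for patterns, chemoattractants and Fc have medians between -2.34 and -1.46.

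On the myeloid side the primary granule genes, made at the promyelocyte stage, did not favour Mac1Gr1. Of 17 tested, 6 were higher in Ter119 and 4 lower, with a median of 1.11. Mpo, myeloperoxidase, stood at 6.21, 6.43 and 6.75 in Ter119 against 4.88, 5.32 and 5.47 in Mac1Gr1 (1.24 ± 0.60, adjusted p 0.0804). Elane, neutrophil elastase, stood at 1.67, 1.61 and 2.15 against -0.69, -0.54 and -0.02 (4.68-fold, adjusted p 0.00116). Both were higher on all 3 Ter119 arrays, and only Elane was called. Prtn3, proteinase 3, was 3.03-fold higher, and Ctsg, cathepsin G, differed by 1.20 (adjusted p 0.0574). Serpinb1a, an inhibitor of these proteases, and Srgn, the proteoglycan that packs granules, were lower in Ter119, by 2.43-fold and 3.32-fold.

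The primary granule calls moved with the arrays that set the spread and with the scaling. Without CFUe replicate 3 and PreGM replicate 3 the differences of Mpo and Ctsg were the same and were called (adjusted p 5.42e-05 and 2.23e-04). Under spike-in scaling 3 genes were higher and 5 lower (median 0.38), and with detection of Ddx3y as a block 0 were higher and 6 lower (median -0.46), Elane then differing by 0.30 (adjusted p 0.529).

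Secondary and tertiary granule genes, made later in the lineage, were lower in Ter119 in 20 of 29 cases and higher in 1, with a median of -1.79. When slides were blocked 11 were lower (median -1.15), and with detection of Ddx3y as a block 26 were (median -2.82). Mmp9, gelatinase B, stood at 4.90, 4.99 and 5.03 against 7.62, 7.80 and 7.80 (6.81-fold lower, adjusted p 0.00117). Mmp8, the neutrophil collagenase, stood at 5.84, 5.87 and 5.61 against 7.96, 8.42 and 8.31 (5.49-fold lower). Both were apart on all 6 arrays. Cd177, an antigen of the neutrophil surface and granules, was 5.49-fold lower as well.

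The most familiar secondary granule genes differed little. Ltf, lactoferrin, stood at 9.02, 9.09 and 9.08 against 9.72, 9.72 and 9.80 (-0.68 ± 0.81, adjusted p 0.470). Camp, cathelicidin, stood at 8.57, 8.53 and 8.48 against 9.07, 9.08 and 9.26 (-0.61, adjusted p 0.456). All 3 Ter119 arrays were below all 3 Mac1Gr1 arrays for both genes, and neither was called. Ngp differed by -0.94 (adjusted p 0.226) and Lcn2, lipocalin 2, by -1.47 (adjusted p 0.0882). Without CFUe replicate 3 and PreGM replicate 3, Lcn2 was called (adjusted p 1.56e-04), while Ltf (adjusted p 0.0565), Camp (0.047) and Ngp (0.002) kept their differences under 2-fold. With detection of Ddx3y as a block, Ltf and Camp were called (-3.90 and -3.42).

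Among the S100 proteins, stefins and other neutrophil cytosolic genes 18 of 23 were lower in Ter119 and 0 higher, with a median of -1.99. Vnn3, a vanin, stood at -1.10, -0.61 and -0.89 against 2.46, 2.34 and 2.27 (9.35-fold lower) and Stfa2, a stefin that inhibits cathepsins, was 6.48-fold lower. The calprotectin pair did not follow the list. S100a8 stood at 10.74, 10.48 and 10.35 against 9.95, 9.99 and 10.12 and S100a9 at 11.14, 10.73 and 10.55 against 9.97, 10.05 and 10.26. They were higher on every Ter119 array and were not called (0.50, adjusted p 0.526 and 0.71, adjusted p 0.372). With detection of Ddx3y as a block their differences were -2.32 and -2.09 and were called.

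The NADPH oxidase, which makes superoxide, had 6 of 9 genes lower in Ter119 and 0 higher (median -1.59). The phox subunits Ncf1 (p47) and Cyba (p22) were 3.87-fold and 3.54-fold lower. Cybb, the catalytic gp91, stood at 3.59, 2.93 and 3.57 against 4.71, 4.64 and 4.60 (-1.29, adjusted p 0.0093), a call lost with quantile scaling (-0.80) and when slides were blocked (adjusted p 0.115).

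Receptors of the neutrophil were lower in Ter119 as a rule. Of 29 pattern receptors 21 were lower and 2 higher, with a median of -1.94. Clec4d, a C-type lectin for mycobacterial glycolipid, was 7.40-fold lower, Tlr2 5.49-fold and Tlr4, the endotoxin receptor, 4.92-fold. Of 21 chemotactic receptors 13 were lower and 4 higher, or 1 higher under spike-in scaling. Cxcr2, the chemokine receptor that releases neutrophils from the marrow, stood at 4.13, 4.46 and 4.10 against 6.39, 6.97 and 7.02 (5.90-fold lower, or -1.93 with adjusted p 0.0595 when slides were blocked). Cxcr1 was not well above background on any Ter119 array (at least 4.53-fold lower) and Fpr1, the formyl peptide receptor, was 6.29-fold lower. Among the Fc and paired immunoglobulin-like receptors 14 of 19 were lower and 0 higher, including Fcgr3 (6.57-fold) and Pirb (4.56-fold).

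Cytokine receptors were lower in Ter119 in 18 of 31 cases and higher in 6, or 3 with spike-in scaling and with normexp. Csf3r, the receptor of G-CSF, stood at 2.56, 2.60 and 2.62 against 5.96, 5.66 and 5.66, a difference of -3.17 ± 0.31 (8.97-fold lower, adjusted p 1.12e-07). Csf2rb, the beta chain shared by the receptors of GM-CSF, IL-3 and IL-5, was 4.11-fold lower and Csf1r 2.69-fold, and blocking on the slide ended the latter call. The genes higher in Ter119 included Epor and Il7r, the interleukin 7 receptor of lymphoid cells (6.63-fold).

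Csf3r, Itgam and Cxcr2 carry GAGGAA, a core of ETS factors such as PU.1, before their annotated start. Their 250 bases are shown, again from RefSeq, build GRCm38.p6, on the strand of the gene, with GAGGAA or its reverse complement TTCCTC in capitals.
Csf3r, chr4:126024409-126024658, plus strand: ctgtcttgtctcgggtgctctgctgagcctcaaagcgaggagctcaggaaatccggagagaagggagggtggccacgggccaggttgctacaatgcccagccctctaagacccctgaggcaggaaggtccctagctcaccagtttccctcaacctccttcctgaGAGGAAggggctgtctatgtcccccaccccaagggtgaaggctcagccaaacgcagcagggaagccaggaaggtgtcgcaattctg
Itgam, chr7:128062390-128062639, plus strand: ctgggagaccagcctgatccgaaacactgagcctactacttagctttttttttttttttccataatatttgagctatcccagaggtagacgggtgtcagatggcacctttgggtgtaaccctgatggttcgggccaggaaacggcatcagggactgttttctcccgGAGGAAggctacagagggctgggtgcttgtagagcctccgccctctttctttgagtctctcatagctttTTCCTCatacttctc
Cxcr2, chr1:74153744-74153993, plus strand: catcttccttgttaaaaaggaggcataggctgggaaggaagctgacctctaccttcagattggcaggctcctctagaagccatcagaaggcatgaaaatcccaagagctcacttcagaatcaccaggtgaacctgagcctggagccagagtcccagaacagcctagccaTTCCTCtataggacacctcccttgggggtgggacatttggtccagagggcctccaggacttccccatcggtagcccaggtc
The matches begin 86 bases before the start in Csf3r, 84 and 15 in Itgam, and 81 in Cxcr2.

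The motifs were counted on both strands of the 250 bases before each start. AGATAA lay in 9.99% of all 32851 windows, GAGGAA in 23.3% and CCACACCC, a box bound by KLF factors, in 3.20%. Of the tested genes with a window, 8.26% held AGATAA, against 9.72% of genes higher in Ter119 and 7.37% of those lower. GAGGAA lay in 25.8% of tested genes, in 24.4% of those higher and in 28.9% of those lower. For CCACACCC the shares were 4.06%, 3.91% and 5.21% in the same order. Within the lists, 50 genes of haem, globin and membrane were higher. Only 36 of them had a window, and 7 of these (19.4%) held AGATAA. In the granule, stefin, oxidase and receptor lists 88 genes were lower. Only 71 had a window, and 35 of these (49.3%) held GAGGAA. The other pairs were GAGGAA in 12 of those 36 (33.3%) and AGATAA in 8 of those 71 (11.3%). CCACACCC lay in 3 of the 36 (8.33%) and in 7 of the 71 (9.86%). These are counts of letters and were not tested, and a gene with several windows counts once if any of them holds the motif.

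The myeloid transcription factors were lower in Ter119 in 22 of 44 cases and higher in 4, with a median of -0.99 (2 higher and -1.71 under spike-in scaling). Spi1 stood at -0.36, 0.32 and 0.10 against 2.53, 2.68 and 2.58 (5.96-fold lower, adjusted p 7.96e-06). Cebpb and Cebpd, C/EBP factors of late granulocytes, were 3.90-fold and 4.14-fold lower and Cebpa 2.37-fold. Rara, the retinoic acid receptor, and Egr1, an immediate early gene, were each 6.81-fold lower. The factors higher in Ter119 included Irf8, a factor of monocytes, dendritic cells and B cells, at 4.30, 4.67 and 4.74 against 2.15, 2.65 and 2.81 (4.09-fold, adjusted p 0.00649; 0.29 with detection of Ddx3y as a block), and Klf4 (2.78-fold).

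Genes of adhesion and movement were lower in Ter119 as well. Of 23 leukocyte integrins and adhesion genes 15 were lower and 0 higher (median -1.46, or -0.88 when slides were blocked). Of 41 genes of actin and migration 33 were lower and 3 higher (median -1.60). Arhgap9, a GTPase-activating protein of blood cells, stood at 0.44, 0.23 and 0.45 against 4.0, 3.8 and 3.61 (-3.43 ± 0.11, adjusted p 1.78e-13). Dock2, an activator of Rac, and Vav1, an exchange factor of leukocytes, were 4.47-fold and 3.33-fold lower. The paralog Vav2 went the other way, at 7.83, 6.76 and 8.31 against -0.60, -1.31 and -0.75 (367-fold higher), by the 1 probe that measured it. Plek, pleckstrin, had 1 probe called higher and 1 lower, and its direction is uncertain. Actb differed by 0.47 (adjusted p 0.051).

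Lipid mediator genes were lower in 12 of 19 cases and higher in 0 (median -1.77, or -0.95 when slides were blocked). Alox5, 5-lipoxygenase, was 4.39-fold lower with 3 of 3 probes, its partner Alox5ap 3.53-fold and Ptgs2, cyclooxygenase 2, 6.76-fold. Interferon-stimulated genes divided, with 15 of 34 lower and 4 higher, or 24 lower and 3 higher under spike-in scaling. Ifit3 stood at 0.12, -0.01 and -0.06 against 3.17, 3.19 and 3.08 (8.77-fold lower) and Oas2 was 6.95-fold lower. Isg20, an exonuclease, and Rsad2, viperin, were 17.3-fold and 11.5-fold higher in Ter119, with 2 of 2 and 3 of 3 probes, and Isg15 was 4.20-fold higher. Of 20 MHC genes 7 were lower and 3 higher. Their split depended on the scaling, with 11 lower and 0 higher to the spike-ins and 5 lower and 6 higher by quantiles. H2-D1 of class I was 3.01-fold lower, and Ciita, the class II activator, 2.70-fold higher, a call lost under spike-in scaling.

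Marker lists of other cell types were read beside these families, as the count of genes called and as the sum of the list's intensities on each Ter119 array in percent of the Mac1Gr1 mean, a sum led by its brightest probes. Lists of the neutrophil lay below 100 on all 3 arrays: pattern receptors at 27.1, 28.1 and 26.8, the NADPH oxidase at 33.7, 34.5 and 32.3, secondary and tertiary granules at 40.9, 42.8 and 40.6, and primary granules at 58.1, 67.9 and 73.0. The stefin and S100 list stood at 91.6, 76.5 and 69.8. Within each list the 3 Ter119 arrays were near each other, the last list being the most spread.

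B cell markers were higher in Ter119 in 16 of 20 cases and lower in 0, with sums at 267, 323 and 259. Cd79a, of the B cell receptor, stood at 0.82, 1.08 and 0.59 against -1.37, -0.93 and -0.72 (3.57-fold). Vpreb3 was 5.01-fold higher and Rag1, which cuts receptor genes in lymphoid progenitors, 4.89-fold. All 20 genes were well above background on all 3 Ter119 arrays, and 19 of them on all 3 Mac1Gr1 arrays. Over all 14281 genes tested these counts were 12551 and 12159. With spike-in scaling 11 of the 20 were higher (median 1.09 against 1.81).

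T and NK cell markers were higher in 18 of 22 cases and lower in 0, with sums at 218, 270 and 243. Gzma, granzyme A, stood at 0.51, 1.06 and 1.04 against -3.97, -3.42 and -3.38 (22-fold), and Klrd1, an NK receptor, was 9.94-fold higher. Gzmb was not well above background on any Mac1Gr1 array (at least 9.20-fold higher). Cd3e was 2.17-fold higher while Cd3d, also of the T cell receptor complex, stood lower by under 2-fold (-0.93, adjusted p 0.0143). Under spike-in scaling 13 were higher and 2 lower, and with normexp 13 and 0.

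Eosinophil, mast cell and basophil markers were higher in 9 of 18 cases and lower in 2, with sums at 42.9, 60.6 and 60.2. Under spike-in scaling 5 were higher and 4 lower. The basophil proteases Mcpt8 and Prss34 were 4.57-fold and 4.38-fold higher and the mast cell chymase Cma1 15.1-fold, by 1 of 2 probes, while Hdc, which makes histamine, was 6.01-fold lower. Dendritic cell markers were higher in 6 of 12 cases and lower in 1, or 4 and 2 under spike-in scaling (sums 122, 143 and 122), with Siglech, of plasmacytoid cells, 9.0-fold higher, although only 2 of 3 Mac1Gr1 arrays measured it.

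Over all genes 23.5% were called higher and 19.5% lower. Monocyte markers were mixed, with 3 of 17 higher (17.6%) and 5 lower (29.4%), and sums at 52.7, 59.4 and 55.8. Their direction depended on the setting: 9 were higher and 2 lower when slides were blocked, 8 and 4 with the series table, 7 and 4 with quantile scaling, and 5 and 5 without CFUe replicate 3 and PreGM replicate 3. The median of 0.68 became 1.13 when slides were blocked, -0.05 under spike-in scaling and -0.64 with detection of Ddx3y as a block. Macrophage markers were lower in 13 of 19 cases and higher in 2 (sums 40.2, 38.3 and 37.4). With the slide as a block 3 were lower. Adgre1 (F4/80) was 2.76-fold lower, a call lost with that block, and Mertk was not well above background on any Ter119 array. C1qa was 3.48-fold lower and C1qb 2.65-fold higher, though both encode chains of the same complement protein. Of 17 megakaryocyte markers, 9 were well above background on all 3 Ter119 arrays. Of the 17, 4 were higher and 4 lower (23.5% each), near the shares over all genes. That split was 1 and 8 under spike-in scaling, 2 and 5 with quantile scaling or without Mac1Gr1 replicate 1, and 2 and 6 with the series table. Of 12 endothelial and stromal markers 1 was higher and 1 lower, or 1 and 3 under spike-in scaling. What part of any family's difference these other cells hold was not tested.

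**Figure D4:**
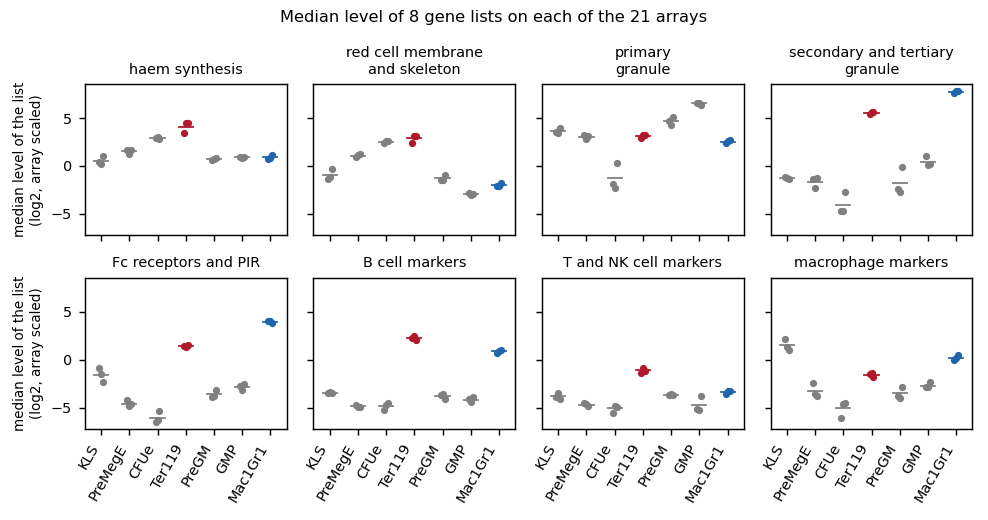
Median level (log2, relative to the 75th percentile of the array) of 8 gene lists on each of the 21 arrays, by fraction. Secondary and tertiary granule genes lie at a mean of 5.58 in Ter119 against -4.08 in CFUe and 7.75 in Mac1Gr1, and B cell markers are highest in Ter119, at 2.29.

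The same lists across all 7 fractions place the mature cells. The median level of the membrane list was 2.88 ± 0.43 (SD, n = 3) in Ter119 and 2.55 ± 0.11 in CFUe, against -1.98 ± 0.18 in Mac1Gr1, the Ter119 and CFUe ranges overlapping. Globins lay at 5.34 ± 0.12 in Ter119 and between -3.90 and -2.89 in the other fractions. The secondary and tertiary granule list stood at 7.75 ± 0.09 in Mac1Gr1, 5.58 ± 0.13 in Ter119 and 0.42 ± 0.52 in GMP, and at -4.08 ± 1.13 in CFUe. The primary granule list was highest in GMP, at 6.54 ± 0.11, and stood at 3.17 ± 0.18 in Ter119 and 2.55 ± 0.20 in Mac1Gr1. B cell markers stood at 2.29 ± 0.19 in Ter119 and 0.90 ± 0.21 in Mac1Gr1, and at -3.44 or below in the progenitor fractions.

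To compare the contrast of the lineages between mature and progenitor fractions, the Ter119 minus Mac1Gr1 difference was set against the CFUe minus GMP difference in the same fit for 24 genes, of which 23 were matched. What part of a change other cells within the Ter119 gate hold was not tested. The difference of the differences had an adjusted p under 0.05 for 19 of the 23, against 58.5% of all genes tested. Alas2 was 2.53 above GMP in CFUe and 11.22 above Mac1Gr1 in Ter119, a gain of 8.69 ± 0.41 (adjusted p 5.35e-11), and Slc4a1 gained 8.81, from 0.66 to 9.47. Alas2 was well above background on 1 of 3 GMP arrays. Trim10 and Tfrc gained 5.36 and 3.45. The erythroid regulators moved the other way and were closer in the mature cells: Klf1 went from 8.15 to 6.40, Gata1 from 6.04 to 4.07, Gfi1b from 7.68 to 4.43 and Epor from 8.15 to 6.09.

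Of the 15 myeloid genes, the 11 that passed had a more positive difference in the mature fractions than in the progenitors. Elane differed by -11.11 between CFUe and GMP and by 2.23 between Ter119 and Mac1Gr1, a change of 13.34, and Prtn3, Ctsg and Mpo changed by 10.79, 10.02 and 8.41. S100a8 changed by 6.85, Cybb by 6.75, Csf3r by 4.81, Spi1 by 4.17, Itgam by 3.63 and Lcn2 by 3.18. Ltf (-1.76, adjusted p 0.205), Camp (2.04, adjusted p 0.0923), Mmp8 (-0.83, adjusted p 0.336) and Cxcr2 (1.01, adjusted p 0.227) did not pass. Without CFUe replicate 3 and PreGM replicate 3, Camp (2.92, adjusted p 1.36e-05) and Cxcr2 (1.59, adjusted p 0.018) passed, which made 21, and Ltf and Mmp8 did not. Csf3r, Itgam and Cybb were well above background on no CFUe array and Elane, Lcn2, Spi1 and Mmp8 on 1, so that their changes are not measured folds and depend on the background correction. With normexp Csf3r changed by 1.08, Spi1 by 1.49 and Cybb by 2.83, while Itgam (0.46, adjusted p 0.128) and Lcn2 (0.54, adjusted p 0.237) did not pass and Ltf (-1.81), Mmp8 (-2.29) and Cxcr2 (-1.10) did. Klf1 did not pass with spike-in scaling (-1.11, adjusted p 0.113), quantile scaling or the series table, nor Lcn2 when slides were blocked (adjusted p 0.086). Camp (2.69, adjusted p 0.0215) and Cxcr2 (1.66, adjusted p 0.0282) passed with spike-in scaling. With detection of Ddx3y as a block Ltf passed (-3.91, adjusted p 6.40e-06), while Camp (0.16, adjusted p 0.762) did not.

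**Figure D5:**
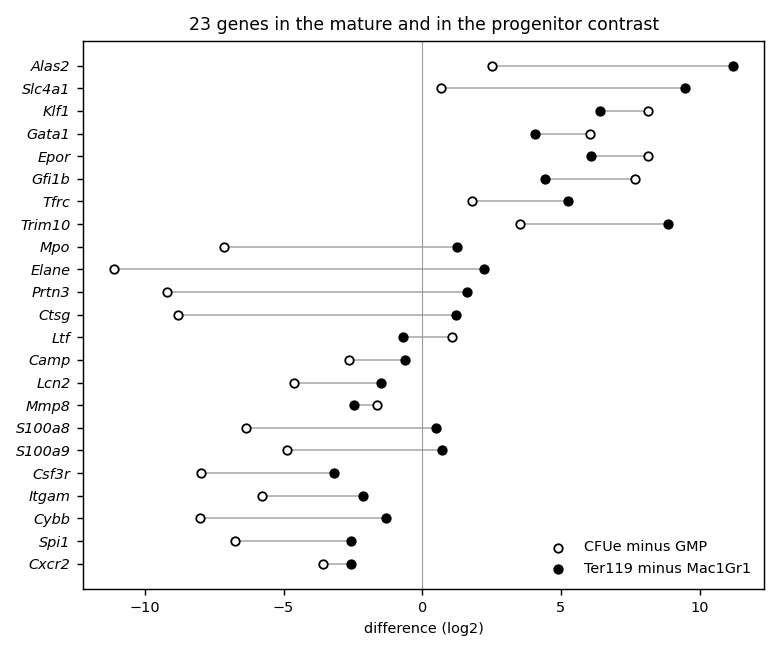
Difference between the lineages (log2) for 23 genes in progenitors (CFUe minus GMP, open symbols) and in mature fractions (Ter119 minus Mac1Gr1, filled symbols). Alas2 and Slc4a1 lie further to the right in the mature fractions, while Elane lies at -11.11 in the progenitors and at 2.23 in the mature fractions.

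Over all genes, the largest excesses of Ter119 included several outside the erythroid lists. Rec114, known from meiotic recombination, stood at 6.06, 6.37 and 6.24 against -3.99, -4.34 and -4.15 (1333-fold), by 1 of its 2 probes (adjusted p 4.09e-13). Olfr1495, an olfactory receptor gene, stood at 5.99, 5.45 and 5.40 against -3.82, -3.85 and -3.52. For both the fractions lay far apart and the replicates close together. Prxl2a, a peroxiredoxin-like protein, was 456-fold higher. Among genes that no Mac1Gr1 array showed well above background, Cyp4b1, a cytochrome P450, was at least 506-fold higher, Btnl10, a butyrophilin-like gene, at least 294-fold, and Usp54, a ubiquitin peptidase homolog, and Cntn6, a contactin, at least 278-fold each, Cntn6 by 1 of 2 probes.

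In the opposite direction the largest differences, after Arhgap9 and Vnn3, were those of Dnah6, a dynein heavy chain (-3.21, 1 of 2 probes), Il1f9, an interleukin 1 family cytokine (-3.21), and Basp1 (-3.18). Trpm2, a calcium channel of phagocytes, stood at 2.93, 2.90 and 2.88 against 5.90, 6.01 and 6.13 (8.63-fold lower, adjusted p 6.40e-09). Arg2, mitochondrial arginase, stood at -0.02, 0.11 and 0.14 against 3.17, 3.27 and 3.08 (8.55-fold lower), a call lost with the slide as a block. Capns2, a calpain subunit, and Plekhs1 were 8.90-fold and 8.72-fold lower. Apart from Xist and Tsix, the largest bounds were those of Chrm3, a muscarinic receptor (at least 8.32-fold lower in Ter119), and Acad10, an acyl-CoA dehydrogenase (at least 7.36-fold).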

How the data were processed

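Total RNA of sorted C57BL/6 bone marrow cells had been amplified, labelled with Cy3 together with spike-in RNAs and put on whole-genome mouse arrays, 1 sample and 1 colour per array. The deposited scanner files hold the background-corrected intensity of each spot, read by the authors with Feature Extraction 10.7.1.1 of Agilent. The deposited series table holds log2 values normalized between arrays by the authors, with scale and direction as in the scanner values (rank correlation 0.9998 to 0.99998). LIMMA and SAM are the tools named in the study's methods for normalization and differential calls.

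Levels were log2 of the intensity minus the 75th percentile of the array over 43379 non-control spots. Between 80 and 283 outlier spots per array were dropped, 0 spots were saturated, and replicate spots were averaged into 41174 probes. Tests covered the 29532 probes that every array of some fraction showed well above background. Symbols came from RefSeq accessions matched to the GRCm38.p6 table (26682 probes, 64.8%), while the array annotation names mm9, so no probe coordinates are given. A gene was read from its probe of highest mean level across the 21 arrays. Of 5091 genes with several probes tested, 27 had probes called in opposite directions.

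The two-sided tests used lmFit and eBayes of limma 3.58.1 under R 4.3.3, in 1 fit with a mean per fraction and no block, with a median residual SD of 0.262 and 14 residual degrees of freedom, and with Benjamini-Hochberg adjustment over all probes tested. All adjusted p values are of this kind, and the number of arrays limits the precision. A bound divides the bright fraction's mean by a floor: on each dim array, the lowest signal well above background or, if higher, the probe's own, averaged over its arrays. On simulated data, 170 of 200 probes changed by 2 on the log2 scale were recovered (85%), with 7 false calls. All other simulated probes had the same mean in every fraction, unlike these data, so neither number carries over to them.

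Named genes are those of the lists and, in each direction, the 12 genes with the largest difference on all 6 arrays without overlap and the 12 with the largest bound. The fractions, the lists and the genes of the progenitor contrast were chosen with earlier results of these data known, so their counts are descriptions beside those over all genes. A list gene without a matched symbol was not analysed here, and some genes that meet the rule are not reported. Names outside this rule, the Y-linked genes among them, were chosen after their values were seen.

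Alternatives were quantile scaling, spike-in scaling (7 of 10 sequences), the series table, normexp with an offset of 50, no filter on dim probes, no minimum fold, 1 probe per gene, the slide or the replicate number as a block, a fit of the compared fractions only, and omission of each array in turn. Detection of Ddx3y as a block, and a fit without CFUe replicate 3 and PreGM replicate 3, were added after seeing the data. Figures were drawn with Python 3.11.15 and matplotlib 3.10.9.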

Additional observations from a re-analysis of the deposited data

Results flagged for a closer look

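For 19 of the 23 genes asked, the difference between the lineages in the mature fractions (Ter119 minus Mac1Gr1) differed from that in the progenitors (CFUe minus GMP) at a limma adjusted p under 0.05. What part of a change other cells within the Ter119 gate hold was not tested. The change of the log2 difference was positive for Alas2 (8.69), Slc4a1 (8.81), Trim10 (5.36) and Tfrc (3.45). It was negative for Klf1 (-1.76), Gata1 (-1.96), Epor (-2.06) and Gfi1b (-3.25). Of the primary granule genes, Elane changed by 13.34, Prtn3 by 10.79, Ctsg by 10.02 and Mpo by 8.41. The other neutrophil genes changed by 6.85 (S100a8), 5.59 (S100a9), 6.75 (Cybb), 4.81 (Csf3r), 4.17 (Spi1), 3.63 (Itgam) and 3.18 (Lcn2). Csf3r, Itgam and Cybb were well above background on no CFUe array, so that their values depend on the background correction: with normexp they were 1.08, 0.46 (adjusted p 0.128) and 2.83, and Spi1 and Lcn2 were 1.49 and 0.54 (adjusted p 0.237 for the latter). Groups of 3 arrays are too small for a test of outlying samples.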

How the results depend on the processing

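Of 12388 probes called (6511 higher, 5877 lower), spike-in scaling left 3031 higher and 11473 lower. Normexp gave 7218 (3311 and 3907), no minimum fold 19530 (9800 lower) and 1 probe per gene 6154 (3363 and 2791). The series table (5701 and 6766) and quantile scaling (5678 and 6595) turned the larger side. The slide as a block gave 11589, no filter on dim probes 12995 and the compared fractions alone 12639. Leaving out 1 array gave 11844 to 12817 (6118 to 6939 higher, 5726 to 5878 lower), 476 to 488 list genes called against 493, and 19 genes past the threshold for the progenitor contrast each time. Deviations of same-numbered arrays correlated at 0.0894, 0.229 and -0.153. Differently numbered arrays were not compared, so these values do not show whether the numbers pair the samples. With a replicate block 12381 probes were called (6501 and 5880), 496 list genes and again 19 genes of the progenitor contrast. Of 743 named genes, 69 lost and 76 gained a call under spike-in scaling, 80 and 16 with the slide as a block, and 0 and 11 without CFUe replicate 3 and PreGM replicate 3. With the slide as a block 3 reversed without being called: Gpr84 (0.11), Bcl2a1b (0.09) and Ifi27l2a (0.07). With detection of Ddx3y as a block, added after seeing the data, the primary granule median reversed (-0.46), as did Egr2 (0.45), Pmaip1 (0.19), Ly86 (-0.16), Xist (1.19) and Tsix (0.08), none of these genes being called. The causes were not tested.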
